A study of Mus musculus with 127 samples.

Results

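In 3 of the 113 patched neurons, transcripts of glial genes outnumbered transcripts of neuronal genes. A neuron was called rich when its summed counts of 13 glial genes (10 known from astrocytes and 3 from microglia) exceeded its summed counts of 10 neuronal genes. The 3 members made up 2.65% of the neurons, with an exact binomial 95% confidence interval of 0.551% to 7.56% that covers counting error only. They were 97Q RGFP109 cell 4 and 25Q vehicle cell 6, both of batch 1, and 97Q RGFP109 cell 22 of batch 3, where a cell number only names a cell within its group. The other 110 neurons and 14 astrocytes serve for comparison.

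Each sample was the content of 1 cell, drawn through a patch pipette after 15 days in culture and sequenced as full-length cDNA. The neurons were striatal neurons of newborn C57BL/6 mice, grown on small islands of cortical astrocytes, so every neuron lay on the cell type whose transcripts are described here. A lentivirus gave the neurons exon 1 of human huntingtin fused to GFP, with 97 glutamines (97Q, the expanded form) or 25 glutamines (25Q). RGFP109, an inhibitor of histone deacetylases, was given at 100 nM from day 6 on, and the vehicle was DMSO. The groups held 26 neurons of 97Q with RGFP109, 23 of 25Q with RGFP109, 26 of 97Q with vehicle and 29 of 25Q with vehicle, all spread over 3 batches. A further 9 neurons carried an empty vector, and the 14 astrocytes were untreated cells from cortex; both of these came from batch 3 only. The labels name no animal or culture for a cell.

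Astrocytes clear glutamate and potassium around synapses, supply lipids through apolipoprotein E and respond to inflammatory signals by making proteins such as lipocalin 2 and complement C3. Striatal projection neurons make GABA with the enzymes Gad1 and Gad2.

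The members were chosen by these measured counts, so the values that follow are a description and carry no test. Cell 4 of 97Q RGFP109 held 24750 glial and 4831 neuronal counts, a ratio of 5.12. Cell 22 of 97Q RGFP109 held 90848 glial and 29008 neuronal counts, a ratio of 3.13. Cell 6 of 25Q vehicle held 21211 glial and 10085 neuronal counts, a ratio of 2.10. The ratio had a median of 0.0778 in the other neurons, and 43.1 in the astrocytes, whose lowest ratio was 6.23. In this ratio, all 3 members lay above every other neuron and below every astrocyte. The neurons just outside the rule were 97Q vehicle cell 7 at 0.975, 25Q vehicle cell 10 at 0.966 and 25Q RGFP109 cell 6 at 0.962, all of batch 1.

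Levels per cell are given as CPM, the count of a gene scaled to the total of its library.

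**Figure D1:**
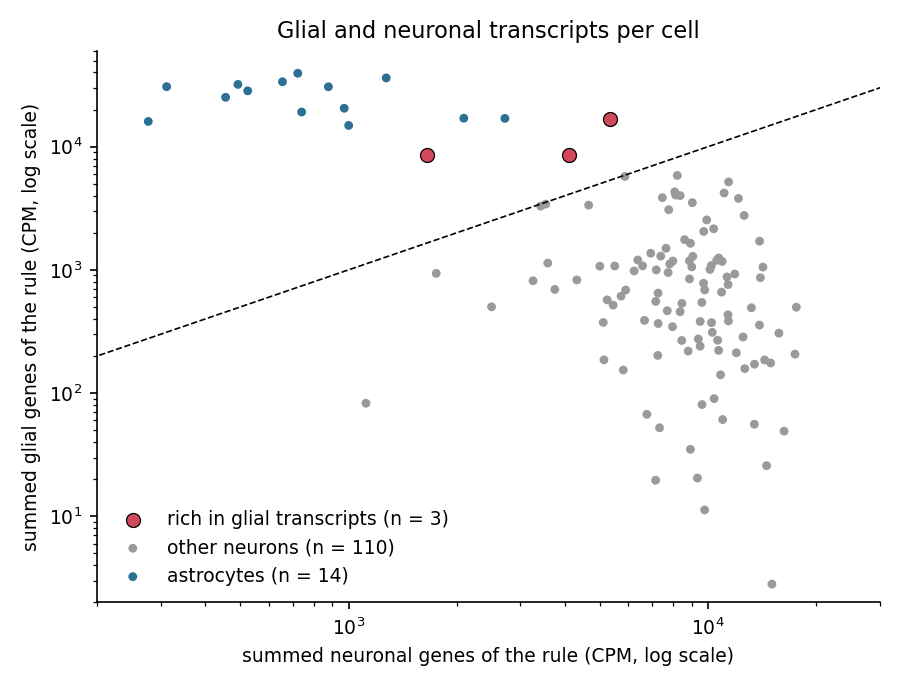
Summed CPM of the glial genes (vertical, log scale) against those of the neuronal genes (horizontal, log scale), 1 point per cell; the dashed line marks equal sums. The 3 rich neurons lie above the line. Their glial sums of 8489 to 16727 CPM are above those of all 110 other neurons (at most 5834 CPM), and the highest, cell 22, is within the range of the astrocytes, which starts at 14855 CPM.

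The library totals were 2915586, 5431280 and 2460179 counts in cell 4, cell 22 and cell 6, against a median of 4252638 counts and a range of 999700 to 8842811 counts in the other neurons. Cell 4 and cell 6 were thus shallower than the median neuron and cell 22 was deeper. Genes with at least 1 count numbered 15455 in cell 4, the most of all 127 cells, 13435 in cell 22 and 13574 in cell 6. The median was 11844 genes in the other neurons and 12121 in the astrocytes.

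The glial sum was an astrocyte sum. The microglial genes of the rule were at or near 0 in all 3 members: C1qa and Cx3cr1, which encode a complement subunit and the fractalkine receptor, had no count, and C1qb had 2 counts in cell 4 only. Gfap, the intermediate filament protein by which astrocytes are usually recognised, was uneven, with 125 CPM in cell 4, 3.13 CPM in cell 22 and 0 in cell 6. It was listed at 0 in 47 of the 110 other neurons and reached 3.80 to 8685 CPM in the astrocytes. S100b had 11.0 CPM in cell 4 and no count in cell 22 or cell 6, and it was also at 0 in 11 of the 14 astrocytes.

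A few secreted proteins carried most of the sum. Sparc, a matrix-binding glycoprotein (GRCm38 chromosome 11, 55394500 to 55423183), had 2269, 9281 and 3096 CPM in cell 4, cell 22 and cell 6, against a median of 82.7 CPM in the other neurons and 12010 CPM in the astrocytes. Clu, the chaperone clusterin (chromosome 14, 65968483 to 65981547), had 1044, 5782 and 2917 CPM, against medians of 222 CPM in the other neurons and 7623 CPM in the astrocytes. The highest other neuron had 3844 CPM of Sparc and the highest for Clu had 3141 CPM, both above cell 4 and cell 6. Sparc supplied 26.7%, 55.5% and 35.9% of the glial counts in cell 4, cell 22 and cell 6.

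Apoe did not follow the astrocyte cells. This lipid carrier (chromosome 7, 19696109 to 19699188) had 2945 CPM in cell 4, 106 CPM in cell 22 and 1200 CPM in cell 6, against medians of 23.9 CPM in the other neurons and 112 CPM in the astrocytes. Cell 4 and cell 6 were above the highest astrocyte, which had 477 CPM, and cell 22 was near the astrocyte median. Cell 4 was also above the highest of the other neurons, at 1250 CPM.

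Transport proteins of astrocyte membranes were present in every member. Slc1a3, a glutamate transporter, had 1599, 504 and 769 CPM in cell 4, cell 22 and cell 6, against a median of 9.44 CPM in the other neurons and 808 CPM in the astrocytes. Aqp4, the water channel of astrocyte endfeet, had 366, 710 and 280 CPM, against medians of 0.735 CPM in the other neurons and 579 CPM in the astrocytes. Gja1, the gap junction protein connexin, had 76.8, 19.7 and 268 CPM, against 0.219 CPM in the other neurons and 434 CPM in the astrocytes. The folate enzyme gene Aldh1l1 had 52.1, 313 and 31.7 CPM, while 58 of the 110 other neurons had no count of it and the astrocyte median was 522 CPM. Single other neurons overlapped the members. Their highest values were 701 CPM of Slc1a3, above cell 22, and 413 CPM of Aqp4, above cell 4 and cell 6. They reached 166 CPM of Gja1, above cell 4 and cell 22, and 134 CPM of Aldh1l1, above cell 4 and cell 6. Slc1a2, the second glutamate transporter, had 1.03, 7.92 and 58.9 CPM in cell 4, cell 22 and cell 6, against medians of 14.8 CPM in the other neurons and 0.362 CPM in the astrocytes. Cell 4 and cell 22 were below the other neurons' median and cell 6 was above it. The astrocytes had less of this gene than the other neurons at the median.

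**Figure D2:**
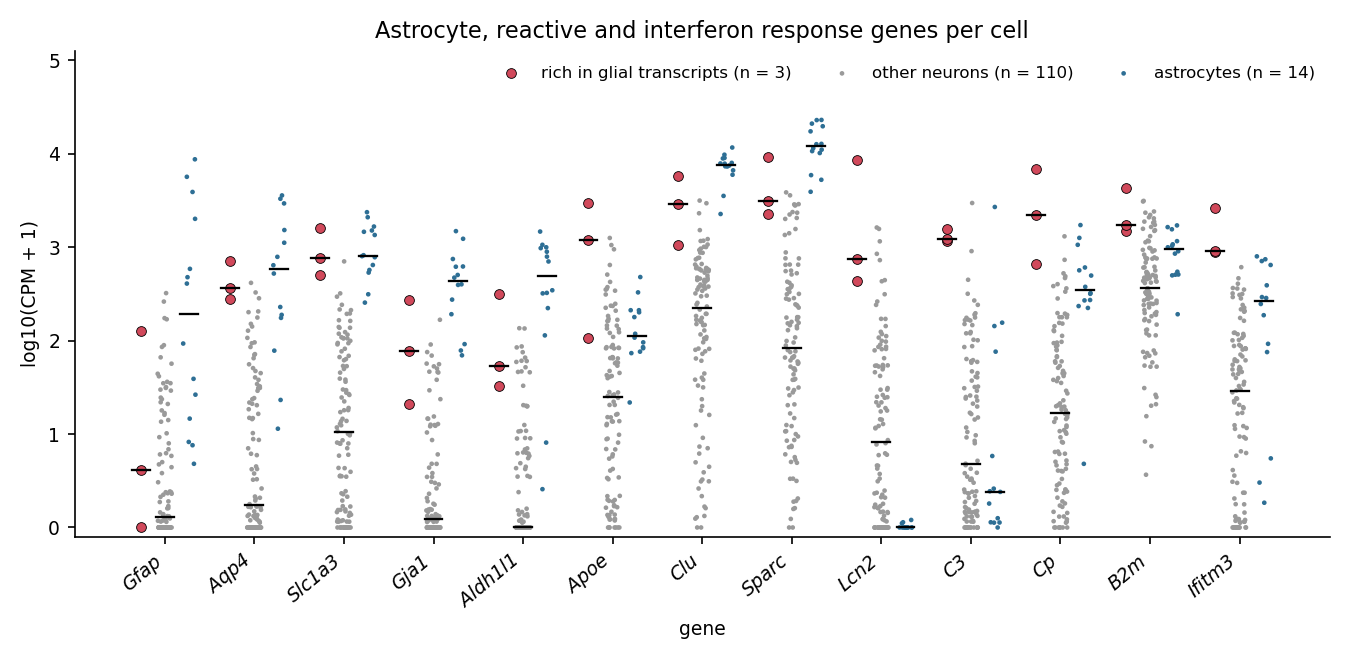
Levels of 13 genes as log10(CPM + 1), 1 point per cell, with rich neurons left, other neurons in the middle and astrocytes right for each gene; bars are medians. Sparc and Clu of the rich neurons sit between the other groups' medians, whereas Lcn2 of all 3 rich neurons (432 CPM and more) is far above the astrocytes, which reach 0.204 CPM.

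Neuronal transcripts were present as well, many at lower levels than in most neurons. Of the 10 neuronal genes of the rule, 7 were below the other neurons' median in all 3 members. The share over all genes was 8.33%, and the members were chosen partly by low counts of these genes. Snap25, a fusion protein of synaptic vesicles (chromosome 2, 136713453 to 136782428), had 256, 1023 and 1512 CPM in cell 4, cell 22 and cell 6, against a median of 2209 CPM in the other neurons and at most 1.84 CPM in any astrocyte. All 3 members were below the other neurons' median and above every astrocyte. Stmn3, a tubulin-binding stathmin, had 175, 453 and 429 CPM, against medians of 1089 CPM in the other neurons and 0.406 CPM in the astrocytes. Gap43, a protein of growing axons, had 143, 647 and 433 CPM, against 988 CPM in the other neurons and 0.133 CPM in the astrocytes. Tubb3, neuronal tubulin, was less low, with 60.4, 294 and 481 CPM against a median of 366 CPM in the other neurons. The rule genes Map2, Stmn2 and Uchl1 were not limited to neurons and had astrocyte medians of 126, 144 and 342 CPM. Uchl1 had 271, 800 and 361 CPM in cell 4, cell 22 and cell 6, against a median of 657 CPM in the other neurons. Nefm had 33.3, 15.1 and 5.69 CPM against 13.0 CPM, so cell 4 and cell 22 were above that median. Nefl had 24.7, 46.2 and 41.1 CPM against 60.2 CPM, and Syt1 had 61.7, 232 and 317 CPM against 471 CPM.

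Genes that the rule did not use gave the same picture, from the same libraries and so without a test. Of 16324 genes with a mean of at least 1 CPM over all neurons, all 3 members were above the other neurons' median for 22.7% and below it for 8.33%. Among the other astrocyte markers, 33 of 40 were kept, and all 3 members were above for 25 and below for none. Among the 30 other neuronal markers, all kept, the members were all below for 14 and all above for 1. The summed level of the 40 astrocyte markers was 24040, 17405 and 23717 CPM in cell 4, cell 22 and cell 6, against a median of 2013 CPM in the other neurons and 37757 CPM in the astrocytes. The highest other neuron had 19275 CPM, above cell 22.

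Among these markers, Dbi, a binding protein for fatty acyl-CoA, led with 7800, 3531 and 7364 CPM in cell 4, cell 22 and cell 6, against medians of 331 CPM in the other neurons and 5072 CPM in the astrocytes. The metallothionein gene Mt3 had 2609, 3374 and 2619 CPM, more than any other neuron (2370 CPM) and less than the astrocyte median of 4975 CPM. The protease inhibitor gene Cst3 had 2725, 3427 and 4659 CPM, against 398 CPM in the other neurons and 4947 CPM in the astrocytes. Sox9, a transcription factor of astrocytes, had 212 CPM in cell 4 and 256 CPM in cell 6, both above the highest other neuron at 132 CPM, but 19.1 CPM in cell 22.

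A pair of gene sets was drawn from the comparison cells themselves, with the rule genes left out: 178 genes high in astrocytes and low in other neurons, and 148 genes with the reverse pattern, by medians of at least 100 CPM on one side and at most 1 CPM on the other. Of the astrocyte-side genes, 163, 157 and 138 reached 10 CPM in cell 4, cell 22 and cell 6, against a median of 25 in the other neurons and 164.5 in the astrocytes. Of the neuron-side genes, 128, 133 and 133 reached 10 CPM, against a median of 135 in the other neurons and 22.5 in the astrocytes. The members thus had most genes of both sets in 1 library. In summed level, the astrocyte-side genes came to 35.97%, 42.8% and 21.0% of the astrocyte median in cell 4, cell 22 and cell 6, and the neuron-side genes to 32.8%, 27.0% and 50.2% of the other neurons' median.

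**Figure D3:**
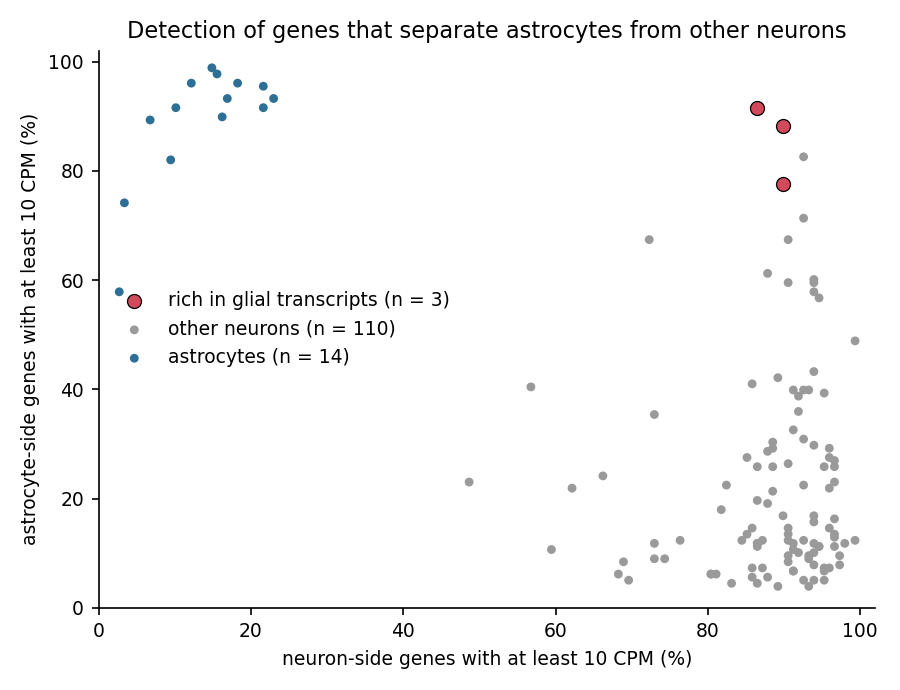
Share of the 148 neuron-side genes (horizontal, %) and of the 178 astrocyte-side genes (vertical, %) with at least 10 CPM, 1 point per cell. The rich neurons lie at the top right, with 86.5% to 89.9% of the neuron-side and 77.5% to 91.6% of the astrocyte-side genes; 97Q vehicle cell 7, just outside the rule, lies beside them with 147 of the 178 astrocyte-side genes.

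The neurons next to the rule differed in this respect. Cell 7 of 97Q vehicle had 147 of the 178 astrocyte-side genes and cell 6 of 25Q RGFP109 had 109, whereas cell 10 of 25Q vehicle had 40. In that last cell Sparc alone stood at 2859 CPM of a glial sum of 3416 CPM. The rank correlation of each member's profile, over 16419 genes, was 0.709 with the astrocyte mean and 0.720 with the other neurons' mean in cell 4, 0.722 with both in cell 22, and 0.687 with the astrocyte mean and 0.756 with the other neurons' mean in cell 6. Over the other neurons, the medians were 0.525 with the astrocyte mean and 0.755 with the other neurons' mean. The first value minus the second was -0.0688 in 25Q vehicle cell 6. It was nearer to 0 in some neurons outside the rule: -0.0478 in 97Q RGFP109 cell 11, -0.0613 in 97Q RGFP109 cell 9 and -0.0645 in 97Q vehicle cell 7. Genes are not independent replicates, and these values describe likeness only.

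By count, genes of inflammatory astrocytes were above the astrocyte median about as often as genes in general, but their summed level was higher. It was 9131, 18665 and 5528 CPM in cell 4, cell 22 and cell 6. The medians were 5488 CPM in the astrocytes and 584 CPM in the other neurons. Cell 22 was above the highest astrocyte, at 12099 CPM, and cell 6 was near the astrocyte median. Of the 26 genes, 22 were kept, and all 3 members exceeded the astrocyte median for 6 of these (27.3%), where the share over all genes was 26.9%. They were below it for 3, where the share over all genes was 9.84%. Against the other neurons' median, all 3 members were above for 13 of the 22, where the share over all genes was 22.7%. Single genes stood apart. Lcn2, lipocalin 2 (chromosome 2, 32384633 to 32388252), had 745, 8526 and 432 CPM in cell 4, cell 22 and cell 6, against a median of 7.30 CPM and a maximum of 1617 CPM in the other neurons. No astrocyte had more than 0.204 CPM of it, and 11 of 14 had no count. C3, complement component C3 (chromosome 17, 57203970 to 57228136), had 1558, 1154 and 1231 CPM, against medians of 3.73 CPM in the other neurons and 1.42 CPM in the astrocytes, of which 1 cell reached 2683 CPM. Cp, the ferroxidase ceruloplasmin, had 2220, 6899 and 656 CPM, against 15.6 CPM in the other neurons and 348 CPM in the astrocytes. Not all of the list went this way: Serpina3n had 3.77, 20.8 and 51.2 CPM, and the filament gene Vim, with 2938, 1098 and 2462 CPM, stayed near the astrocyte median of 2524 CPM. The astrocytes were untreated cells of batch 3 only. For the members of batch 1, batch and kind of cell cannot be told apart in this comparison.

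Interferon response genes were also above the other neurons' median in the members. Their summed level over 20 genes was 4534, 11586 and 3525 CPM in cell 4, cell 22 and cell 6, against medians of 1051 CPM in the other neurons and 1939 CPM in the astrocytes. Such sums were not limited to the members: 7 other neurons were above cell 6, among them 97Q vehicle cell 22 at 7401 CPM, 25Q RGFP109 cell 5 at 7292 CPM and 97Q vehicle cell 7 at 5670 CPM. Ifitm3, a membrane protein that blocks virus entry, had 876, 2619 and 911 CPM, above every other neuron (at most 608 CPM) and every astrocyte (at most 794 CPM). B2m, the light chain of MHC class I, had 1486, 4288 and 1726 CPM, against 360 CPM in the other neurons and 947 CPM in the astrocytes. All 3 members were above the other neurons' median for 14 of the 20 genes (70%), where the share over all genes was 22.7%, and below it for none.

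Genes of GABA synthesis were low. Gad1 had 59.7, 104 and 345 CPM in cell 4, cell 22 and cell 6, against a median of 1119 CPM in the other neurons. Gad2 had 3.77, 49.7 and 598 CPM, against a median of 848 CPM in the other neurons, and cell 4 had the lowest Gad2 of all 113 neurons. No astrocyte exceeded 2.45 CPM of Gad1 or 0.816 CPM of Gad2, so all 3 members were above every astrocyte for both enzymes. Low Gad1 was not limited to the members. Just outside the rule, 97Q vehicle cell 7 had 35.4, 25Q vehicle cell 10 35.6, 97Q RGFP109 cell 11 17.6 and 97Q RGFP109 cell 2 5.66 CPM. There 25Q RGFP109 cell 6 (447 CPM), 25Q vehicle cell 5 (350 CPM), 25Q RGFP109 cell 3 (6758 CPM) and 97Q RGFP109 cell 15 (2545 CPM) were above all 3 members. In the summed GABA list, 18 other neurons were below cell 6.

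Markers of striatal projection neurons were high in 1 of the 3 members. In cell 6 of 25Q vehicle, the 30 markers summed to 5862 CPM, against 916 CPM in cell 4, 640 CPM in cell 22 and a median of 1760 CPM in the other neurons. Penk, the enkephalin precursor of indirect pathway neurons, had 1028 CPM in cell 6 and no count in cell 4 or cell 22. Drd2, the dopamine receptor of the same neurons, had 89.4 CPM in cell 6, 0.343 CPM in cell 4 and none in cell 22.

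**Figure D4:**
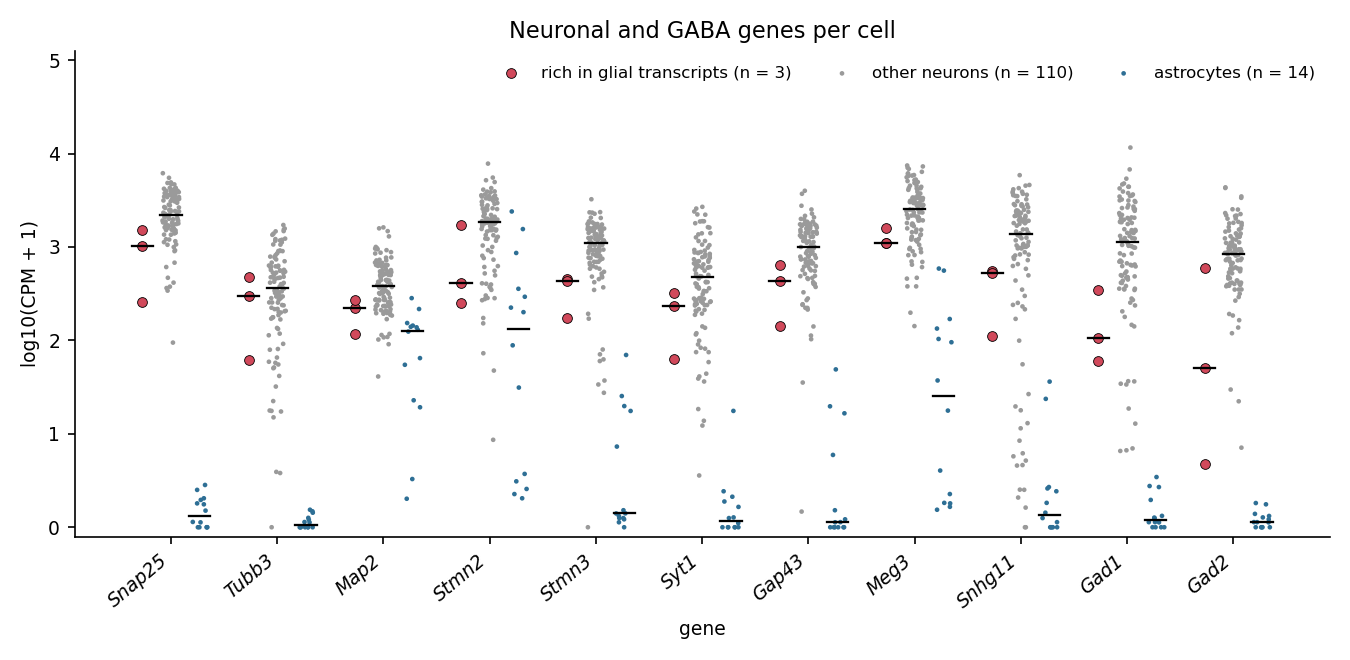
Levels of 9 neuronal genes and of Gad1 and Gad2 as log10(CPM + 1), 1 point per cell, with rich neurons left, other neurons in the middle and astrocytes right for each gene; bars are medians. Gad1 and Gad2 spread more among the 3 rich neurons (Gad2 3.77 to 598 CPM) than Stmn3 (175 to 453 CPM).

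Many, but not all, markers that define further cell types were at or near 0. Cldn5 and Pecam1 of endothelium had at most 0.343 CPM in the members, and the endothelial sum of 415, 1189 and 363 CPM was almost all Slco1a4, an anion transporter with 645 CPM at the median in the astrocytes. The myelin genes Mog and Mag had no count, but other genes of the oligodendrocyte list did. That list summed to 154, 109 and 68.3 CPM in the members, against medians of 103 CPM in the other neurons and 589 CPM in the astrocytes. The mural list was high in cell 4 through the contractile genes Acta2 and Tagln, with Rgs5 and Myh11 at 0. The mural sums were 2672, 609 and 204 CPM in cell 4, cell 22 and cell 6, against medians of 72.9 CPM in the other neurons and 1464 CPM in the astrocytes. Pdgfrb, a growth factor receptor of pericytes, had 19.2, 110 and 20.7 CPM in the members, all above the highest other neuron at 13.7 CPM. The fibroblast list summed to 321, 277 and 299 CPM in the members, against medians of 45.3 CPM in the other neurons and 388 CPM in the astrocytes, with Col3a1, Dcn and Lum at 0 but the collagen gene Col1a2 at 142, 190 and 8.94 CPM. The ependymal and choroid plexus list summed to 352, 733 and 231 CPM in the members, against medians of 27.1 CPM in the other neurons and 209 CPM in the astrocytes. Its defining gene Ttr, transthyretin, had no count in the members, and Rarres2, which encodes chemerin, made up 203, 656 and 88.6 CPM of these sums. Olig1 and Olig2, transcription factors of the oligodendrocyte lineage, had 294 and 95.7 CPM in cell 4, above every other neuron, while Sox10 had no count. The part of these sources in the members' profiles was not tested. Of the 13 mitochondrially encoded genes, 7 had a mean of at least 1 CPM over all neurons. All 7 were above the other neurons' median in each member, where the share over all genes was 22.7%. The list summed to 39674, 40190 and 88602 CPM, against medians of 25983 CPM in the other neurons and 13534 CPM in the astrocytes. Such sums were not limited to the members, as 32 other neurons were above cell 4.

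Outside all lists, genes were ranked by the ratio of rich to other neurons. For the highest ratios, only genes with at least 100 CPM in at least 50% of the rich neurons were ranked. High levels in the members are thus partly set by that filter. The highest ratios included Mgst1, a glutathione transferase, with 470, 699 and 894 CPM against a median of 1.07 CPM in the other neurons. They also included Nfe2l2, a regulator of antioxidant genes, with 192, 578 and 447 CPM against 1.17 CPM in the other neurons. Vcam1, an adhesion protein induced by cytokines, had 434, 1336 and 163 CPM against 0.705 CPM in the other neurons. All of these were also found in the astrocytes, at medians of 595, 874 and 170 CPM for Mgst1, Nfe2l2 and Vcam1. Some genes with the highest ratios were missing from 1 member, as Ccn2 was from cell 22, with 294 CPM in cell 4 and 378 CPM in cell 6. Among the lowest ratios, the calcium pump gene Atp2b2 had 18.5, 21.7 and 122 CPM against 229 CPM in the other neurons, and the adhesion gene L1cam had 34.6, 71.8 and 9.35 CPM against 265 CPM in the other neurons.

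The next question was whether rich neurons fell on one condition. They were 2 of 26 neurons of 97Q with RGFP109, 0 of 23 of 25Q with RGFP109, 0 of 26 of 97Q with vehicle and 1 of 29 of 25Q with vehicle. With the batches weighted equally, the share was 6.55% with RGFP109 and 0% with vehicle in 97Q neurons (two-sided exact permutation within batches, p = 0.5). In vehicle, it was 0% in 97Q and 3.33% in 25Q neurons (exact p = 1), and in 25Q neurons 0% with RGFP109 and 3.33% with vehicle (exact p = 1). With 8 arrangements the smallest p possible is 0.25, so no difference could have passed. Batches with a difference of 0 raise that floor, as swapping their labels changes nothing. Batch 2 differed by 0 in every contrast, and batch 3 also did in both contrasts with 25Q vehicle. In those contrasts only batch 1 differed, so the p-value was fixed and decides nothing. By batch, 2 of 34, 0 of 15 and 1 of 64 neurons were rich in batches 1, 2 and 3. A count of 0 of 15 is compatible with a share of up to 21.8% (exact 95% interval).

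The summed counts by which groups of neurons can be compared hold the members too. Since the members were chosen for high glial counts, their shares of the glial sums are a description. Cell 4 gave 62.4% of the glial counts of its group and batch, among 8 neurons, but 10.7% of all counts. Cell 22 gave 70.4% among 14 neurons, with 7.13% of all counts. Cell 6 gave 34.5% among 10 neurons, with 8.71% of all counts.

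In 97Q neurons with RGFP109 against vehicle, edgeR's quasi-likelihood test over sums per group and batch called none of 15091 genes at a Benjamini-Hochberg adjusted p under 0.05 (0%), and 2.48% had an unadjusted p under that value. None of the 10 astrocyte genes of the rule was called, and none of 14849 genes was called without the rich neurons (0%). DESeq2 called 0.729% of all genes in this contrast, and none of these 10. With 2 of the 3 members in 97Q neurons with RGFP109, and all chosen for high counts of these genes, the direction in which their sum moves when the members are left out is fixed by that choice. The values below give the size of that change and are no evidence on the drug or on the members. Over all neurons, 6 of 10 had a positive log2 fold change, with a median of 0.36 where the median of all genes was -0.04. Without the rich neurons, 3 of 10 were positive and the median was -0.27. For the other astrocyte markers, 22 of 31 were positive over all neurons (median 0.38), and 11 of 30 without the rich neurons (median -0.21).

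Sparc was the gene with the most counts in the glial sums of cell 22 and cell 6, so it was also among the values that chose the members. Its level with RGFP109 was 409, 578 and 795 CPM in batches 1, 2 and 3, against 933, 432 and 435 CPM with vehicle. Without the rich neurons, the RGFP109 values of batches 1 and 3 were 186 and 144 CPM, below the vehicle values of their batches. The log2 fold change was 0.20 ± 0.61 (SE, n = 3 batches) over all neurons and -0.73 ± 0.81 without the rich neurons (edgeR, adjusted p 0.999 and 1).

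The log2 fold change of Aqp4 was 1.22 ± 0.96 over all neurons and 0.13 ± 1.23 without the rich neurons (SE). That of Slc1a3 was 2.47 ± 1.54 over all neurons and 1.61 ± 1.84 without them. Snap25, the neuronal gene, was at -0.04 ± 0.17 over all neurons and 0.05 ± 0.17 without the rich ones. Leaving out cell 22 alone brought the median of the 10 astrocyte genes to -0.20, and leaving out cell 4 alone to 0.03. Over all 14846 genes tested in both fits, the log2 fold change shifted by more than 1 for 418 genes and changed sign for 734.

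**Figure D5:**
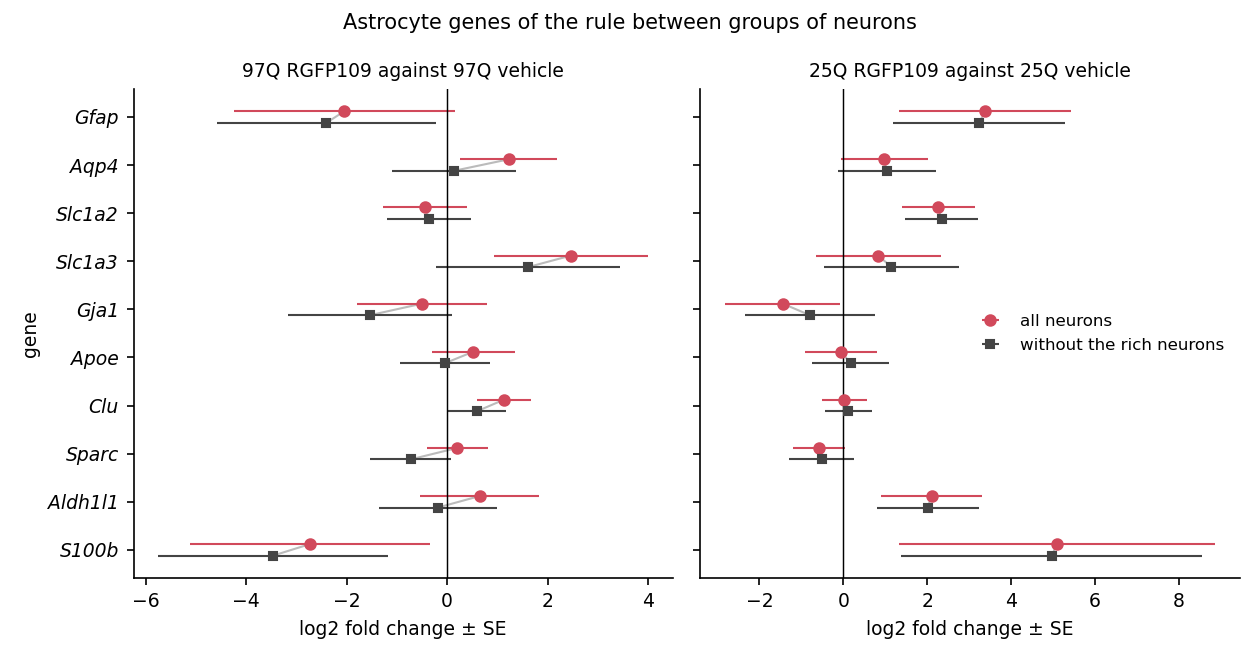
Log2 fold change ± SE (edgeR, n = 3 batches per group) of the 10 astrocyte genes of the rule, RGFP109 against vehicle, for 97Q neurons (left) and 25Q neurons (right), over all neurons (circles) and without the rich neurons (squares). In 97Q neurons Sparc, Apoe and Aldh1l1 cross 0 when the rich neurons are left out.

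In the other pairs of groups that were compared, a group held 1 member or none. In 25Q neurons with RGFP109 against vehicle, and in 97Q against 25Q neurons with vehicle, edgeR called none of the 15091 genes (0%), while 2.52% and 3.96% of genes had an unadjusted p under 0.05. DESeq2 called 0.948% and 1.41% of genes there, and 0.464% for the difference described next. The astrocyte genes of the rule were positive for 7 of 10 and 6 of 10 in these contrasts over all neurons, and for 8 of 10 in both without 25Q vehicle cell 6 and the other rich neurons. For the difference between the drug's effects in 97Q and in 25Q neurons, none was called either (0%, and 2.6% at an unadjusted p under 0.05), with 6 of 10 astrocyte genes positive over all neurons and 2 of 10 without the rich neurons.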

How the data were processed

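The authors deposited raw counts per gene for 127 cells, and per the submitters' processing notes the tools named were FastQC, Trimmomatic 0.36, STAR 2.5 and HTSeq 0.9.1, with the builds GRCm38 and mm10. From these counts, CPM were computed per cell. CPM is not corrected for gene length, so levels are compared between cells and not between genes. Symbols were found for 53274 of 53465 gene IDs, and positions come from GENCODE M21. Of the 23 rule genes, 7 share exon sequence with another annotated gene, and their counts are uncertain to that extent: Slc1a2, Aldh1l1, Cx3cr1, Map2, Uchl1, Nefl and Nefm. Cp, Vcam1, Ccn2 and L1cam do so too.

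Cells are not replicates, so group contrasts used 12 sums, 1 per group and batch, with edgeR 4.0.16 (TMM, group and batch terms, robust quasi-likelihood) on genes that passed its expression filter and had a count in at least 20% of cells. Batch was kept as a term because sums of 1 batch deviated together (correlations of 0.107 to 0.298, against -0.193 to 0.021 between batches). With the batch term in the model, the p-values measure how group differences vary from batch to batch. That spread may be technical and includes the draw of few cells, as a sum held 3 to 15 neurons. Intervals and shares cover counting error only. Sums held 8665881 to 76217208 counts. The edgeR model was also run on simulated data with the spread fitted here but no batch effect, and no result above rests on that run. The common coefficient of variation that edgeR fitted between sums was 0.928. A gene that was not called may therefore still differ. DESeq2 1.42.0 and limma 3.58.1 served as alternatives.

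Named are the rule genes, the list genes with the highest medians or that define a cell type, and outside the lists genes among the 15 highest and 15 lowest ratios of median CPM + 1. The highest ratios were taken among genes with at least 100 CPM in at least 50% of the rich neurons. For the lowest ratios, the same limits were applied to the other neurons. The members, lists and tests were chosen with earlier results of these data known. Doublets were not called. Each library was labelled as 1 patched cell, and whether it also held RNA of other cells was not tested. A result for 1 withheld gene is not reported here.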

Additional observations from a re-analysis of the deposited data

How the results depend on the processing

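The number of rich neurons depends on the rule. It was 1 without Apoe, Clu and Sparc, 5 without Sparc and Snap25, 11 with a glial sum above 0.5 of the neuronal sum, and 14 with the other marker lists in place of the rule genes. It stayed at 3 without the microglial genes, at a ratio of 2 and with cells thinned to 900000 counts, and was 1 to 3 with 1 batch left out. DESeq2 called 213 genes in 97Q against 25Q with vehicle, 110 and 143 for RGFP109 in 97Q and in 25Q neurons, and 70 for the difference of the drug effects, where edgeR called none; the cause was not tested. Without the filter on low counts edgeR called 1 gene for RGFP109 in 97Q neurons. The remaining alternatives, limma among them, called none. With the batch left out as a replicate block, edgeR called 0 genes in each contrast. The share contrasts kept their direction, which was fixed, as 1 group of each held no rich neuron.

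For RGFP109 in 97Q neurons, single log2 fold changes turned negative in these cases. Without the rich neurons, Apoe was at -0.045, Sparc at -0.73 and Aldh1l1 at -0.18. Without the 11 neurons above 0.5, an alternative chosen after seeing the data, Aqp4 was at -1.40, Apoe at -1.06 and Sparc at -1.47. With 1 batch left out Sparc fell to -0.24 and Aldh1l1 to -0.18. Without cell 22 or cell 4 alone, Sparc was at -0.39 or 0.003, and Aldh1l1 at -0.023 or 0.55. None was called in any of them.

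The log2 ratio of median summed levels, rich over other neurons, kept 1 sign in all 9 alternatives for 15 of 21 lists, took both signs for 5 and was 0 for the erythrocyte list. The range was 3.17 to 3.60 for other astrocyte markers, 3.23 to 5.07 for reactive genes, 1.88 to 3.27 for interferon genes, -2.11 to -1.07 for other neuronal markers and -2.93 to -1.28 for GABA genes. Lists of other cell types kept their sign as well, at 4.27 to 5.92 for endothelial, 2.46 to 4.47 for mural and 3.38 to 4.38 for ependymal and choroid plexus markers. Striatal projection neuron markers took both signs: -0.94 as reported, -1.37 without batch 1, but 0.67 without batch 3, 0.88 without cell 4 and 0.94 without cell 22, so the ratio depends on which members are kept. Both signs were also seen for ribosomal protein genes (-0.025 to 0.44), oligodendrocyte markers (-0.21 to 0.35), other microglia and macrophage markers (-0.58 to 0.87) and proliferation markers (-0.21 to 0.56). Batch 1 holds 2 of the 3 members, so a value without it rests on cell 22 alone. With 3 members, no spread within a group or batch of rich neurons can be given.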

Other observations

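One neuron outside the members stood far above the rest for 3 genes of the list of other microglia and macrophage markers. Cell 9 of 97Q RGFP109 had 60533 CPM of the lysozyme gene Lyz2, 12217 CPM of the protease gene Ctss and 4277 CPM of the Fc receptor gene Fcgr3, where the highest value in the remaining other neurons was 1212 CPM of Lyz2, 603 CPM of Ctss and 14.0 CPM of Fcgr3. Of the 25 genes of that list, 9 were above every remaining other neuron and 7 had no count, among them P2ry12, Tmem119, Mrc1, Cd74 and C1qc. Others were below the highest remaining other neuron, such as Cd68 with 45.1 CPM against 439 CPM and Csf1r with 26.5 CPM against 75.4 CPM. The rule did not select it. This cell was singled out after its values were seen.

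Lcn2 and C3 were also high in some neurons just outside the rule. Cell 6 of 25Q RGFP109 had 1563 CPM of Lcn2 and 904 CPM of C3, and cell 11 of 97Q RGFP109 had 846 CPM of Lcn2 and 2958 CPM of C3. Cell 7 of 97Q vehicle had 1.24 CPM of Lcn2 and 28.0 CPM of C3 despite its 147 astrocyte-side genes.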
